A study of Mus musculus with 6 samples.

Results

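Described here are 10 genes of protein folding in the endoplasmic reticulum (ER) and of the unfolded protein response. They are the chaperone genes Hspa5, Hsp90b1, Dnajb9 and Sdf2l1, the folding catalyst genes Pdia4 and Fkbp11, the degradation gene Herpud1, and the transcription factor genes Xbp1, Atf4 and Ddit3. They were taken by gene symbol and are 10 of the 25576 genes listed in at least 1 library. The list was chosen by measured values as well as by known roles, since it was drawn up after expression in these same libraries had been compared between SMA and control. The contrast between the groups is therefore given for these genes as a description, with no p-value. How many of them passed a threshold is printed only beside the share of all genes that did, and is not a test of the members. Bulk-seq was performed on whole spinal cord at postnatal day 4, to ask which transcripts differ in a severe mouse model of spinal muscular atrophy (SMA), the Taiwanese type I line on the FVB background. SMA mice (3 libraries) had the genotype mSmn-/-, hSMN22tg/0, in which both mouse Smn alleles are disrupted. Control mice (3 libraries) were heterozygotes of the same age, mSmn+/-, hSMN22tg/0. The human SMN2 transgene was thus present in both groups, and no library came from a mouse with intact Smn. The paper's methods give triplicates for bulk-seq, with n = 1 per group. That leaves unclear whether the libraries of a group came from separate mice. Here n counts libraries, and p-values reflect a spread between libraries that may be technical.

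Secreted and membrane proteins fold in the ER with the help of chaperones such as BiP, disulfide isomerases and prolyl isomerases, and proteins that fail to fold are moved back to the cytosol and degraded. When unfolded proteins build up, the sensors IRE1, ATF6 and PERK start the unfolded protein response, in which spliced XBP1 and cleaved ATF6 raise transcription of folding and degradation genes, while PERK slows translation and favours ATF4 and its target CHOP, the product of Ddit3. Secretory cells such as hepatocytes, plasma cells and fibroblasts express this machinery at a high level, and motor neurons are known for their sensitivity to ER stress.

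Levels are FPKM, fragments scaled to transcript length and to the mapped total of the library. Levels of different genes are compared on this scale, per length. Total FPKM was not the same in every library, from 346181 to 413652.7, and counts that moved under other scalings are given beside the result. Read depth was unknown. From the steps between low values, the depth of control replicates 1 to 3 relative to the shallowest library was estimated at 1.16, 1.085 and 1.05, and that of SMA replicates 1 to 3 at 1, 1.01 and 1.01. Control replicate 2 stood apart from the other libraries. Its correlation with them over log2(FPKM + 1) of all genes was 0.836 to 0.849, whereas the others correlated with one another at 0.983 or above. Its most abundant gene was Alb, the albumin of hepatocytes, while in the other libraries it was Rn7sk. The members' comparisons are therefore given with all 6 libraries and without control replicate 2.

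The hepatocyte list (10 of 10 genes listed) summed to 75.3, 26220 and 50.7 FPKM in control (replicates 1 to 3, in that order here and below) and to 43.1, 91.4 and 48.9 FPKM in SMA. Alb, its most abundant gene, was at 44.6, 15890 and 30.7 FPKM in control and at 24.7, 56.2 and 30.5 FPKM in SMA. In control replicate 2 this list made up 6.34% of the total FPKM, against 0.0118% to 0.0251% elsewhere, and all 10 of its genes were highest in that library. Apoc3, an apolipoprotein, was the only gene of the list at 0 in any library, in control replicate 3 and SMA replicate 3. The erythroid list (7 of 8 genes listed, Hbb-bs the most abundant) summed to 1384, 14130 and 885 FPKM in control and to 848, 1339 and 1065 FPKM in SMA. The neutrophil list (8 of 8 genes listed, S100a8 the most abundant) summed to 11.6, 419.5 and 6.91 FPKM in control and to 5.36, 6.30 and 6.62 FPKM in SMA. All 7 and all 8 of these genes were highest in control replicate 2, and the neutrophil surface marker Ly6g was at 0 in every other library. The plasma cell list (8 of 8 genes listed, Ighm the most abundant) was low, at 2.71, 7.56 and 1.74 FPKM in control and 2.80, 3.33 and 1.68 FPKM in SMA. Its markers Mzb1, Igkc, Iglc1, Tnfrsf17, Pou2af1 and Derl3 were each at 0 in at least 1 library, and Derl3 is also a gene of the pathway list.

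The labelled tissue was checked against its markers. The neuron list (Stmn2 the most abundant) summed to 1662, 917 and 1528 FPKM in control and to 1599, 1702 and 1698 FPKM in SMA, and the spinal cord position list of Hox genes (Hoxb8 the most abundant) to 198.5, 138.3 and 280.2 FPKM in control and to 219.8, 216.4 and 231.6 FPKM in SMA. Both sums were lowest in control replicate 2. Smn1, the mouse gene disrupted in this line, was at 10.4, 8.64 and 11.9 FPKM in control and at 8.48, 9.30 and 11.1 FPKM in SMA, and the groups overlapped. Its log2 fold change was -0.089 ± 0.15 (SE, n = 3 and 3) and, without control replicate 2, -0.20 ± 0.12, and a two-sided exact permutation test gave p = 0.6 (p = 0.3 without control replicate 2, where n = 2 and 3). The smallest p either test can give is 0.1. The disrupted allele lacks a single exon and a gene-level FPKM does not single out that exon, so Smn1 left the genotype labels unchecked.

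The stretches upstream of 3 members are shown because they hold the DNA elements through which the unfolded protein response is known to act on this gene family. Windows from 250 bases before to 50 bases after each RefSeq start (RefSeq, GRCm38.p6) were available for 10 of the 10 members (11 windows), for 69 of the 83 other genes of the pathway list (81 windows) and for 32851 windows in all. The ER stress response element (ERSE), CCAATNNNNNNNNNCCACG or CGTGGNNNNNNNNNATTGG on the other strand, was held by 0.119% of all windows and by 9.88% of those of the other pathway genes. Among the members it was present in Hspa5, with 1 match, and in Hsp90b1, with 2 matches on opposite strands. ERSE-II, ATTGGNCCACG or CGTGGNCCAAT, which shares the letters CCACG with ERSE, was held by 0.0365% of all windows, by 1.23% of those of the other pathway genes and by the member Herpud1. The core of the unfolded protein response element (UPRE), TGACGTG or CACGTCA, was held by 2.01% of all windows and by 6.17% of those of the other pathway genes, and by Hspa5 and Fkbp11 among the members. The composite site of ATF4 and C/EBP (CARE), TGATGNAAT or ATTNCATCA, was held by 0.965% of all windows, by 4.94% of those of the other pathway genes and by no member. A match describes letters in a window only, and sites outside the windows, of Ddit3 or any other gene, were not searched. Capitals mark the UPRE core in the first stretch (plus strand, chr2:34771840-34771969, upstream of every annotated Hspa5 exon), ERSE in the second (plus strand, chr2:34772020-34772048, the match with 5 bases on each side, upstream of the RefSeq start and within an exon of another annotated Hspa5 transcript) and in the third (minus strand, chr10:86705510-86705694), and ERSE-II in the fourth (plus strand, chr8:94386179-94386428), the last 2 lying upstream of every annotated exon of their genes.
Hspa5 upstream: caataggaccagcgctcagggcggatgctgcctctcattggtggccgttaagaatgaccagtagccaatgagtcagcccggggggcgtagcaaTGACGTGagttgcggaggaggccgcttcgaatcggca
Hspa5 element: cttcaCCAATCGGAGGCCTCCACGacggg
Hsp90b1 upstream: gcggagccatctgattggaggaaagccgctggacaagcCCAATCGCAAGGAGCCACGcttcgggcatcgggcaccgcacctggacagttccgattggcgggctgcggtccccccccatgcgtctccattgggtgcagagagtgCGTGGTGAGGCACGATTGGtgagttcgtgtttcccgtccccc
Herpud1 upstream: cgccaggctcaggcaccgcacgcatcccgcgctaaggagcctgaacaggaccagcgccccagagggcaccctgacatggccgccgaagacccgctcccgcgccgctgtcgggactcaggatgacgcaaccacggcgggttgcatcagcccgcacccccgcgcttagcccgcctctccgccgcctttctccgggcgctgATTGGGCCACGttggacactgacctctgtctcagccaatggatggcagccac

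Counted from the RefSeq start, the first base of the match lay at -65 for ERSE and -157 for the UPRE core in Hspa5, at -212 and -107 for ERSE in Hsp90b1, and at -52 for ERSE-II in Herpud1. In Fkbp11 the UPRE core began at 1, in the second of its windows. The other pathway genes with ERSE in a window were Calr, Canx, Creld2, Derl3, Dnajc3, Ero1b, Pdia6 and Syvn1, which encode chaperones, oxidative folding enzymes or degradation factors of the ER. Dnajb11, an ER co-chaperone, held ERSE-II. The UPRE core was found in Mogs, Txndc11, Txndc5, Ube2j1 and Vcp, and CARE in Aars, Cnpy2, Fgf21 and Nupr1.

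The 10 genes spanned a wide range of levels. In the mean over all 6 libraries Hsp90b1 came first at 79.8 FPKM, followed by Hspa5 (73.1), Xbp1 (32.3), Atf4 (31.7), Pdia4 (21.0), Herpud1 (15.5), Dnajb9 (12.9), Ddit3 (4.24), Sdf2l1 (3.64) and Fkbp11 (1.66). Neighbours in this order were not always apart, since Xbp1 exceeded Atf4 in 2 of 6 libraries, Ddit3 exceeded Sdf2l1 in 3 and Herpud1 exceeded Dnajb9 in 4. Hsp90b1 exceeded Hspa5 in 5 of 6 libraries. The highest library stood above the lowest 1.08-fold for Atf4, the steadiest of the 10, and 13.2-fold for Fkbp11, the most variable. Of the 10 genes, 6 had their highest value in control replicate 2 and 6 had their lowest in SMA replicate 3. Over all 17088 genes tested, control replicate 2 held the highest value for 24.7% and SMA replicate 3 the lowest for 11.9%.

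**Figure D1:**
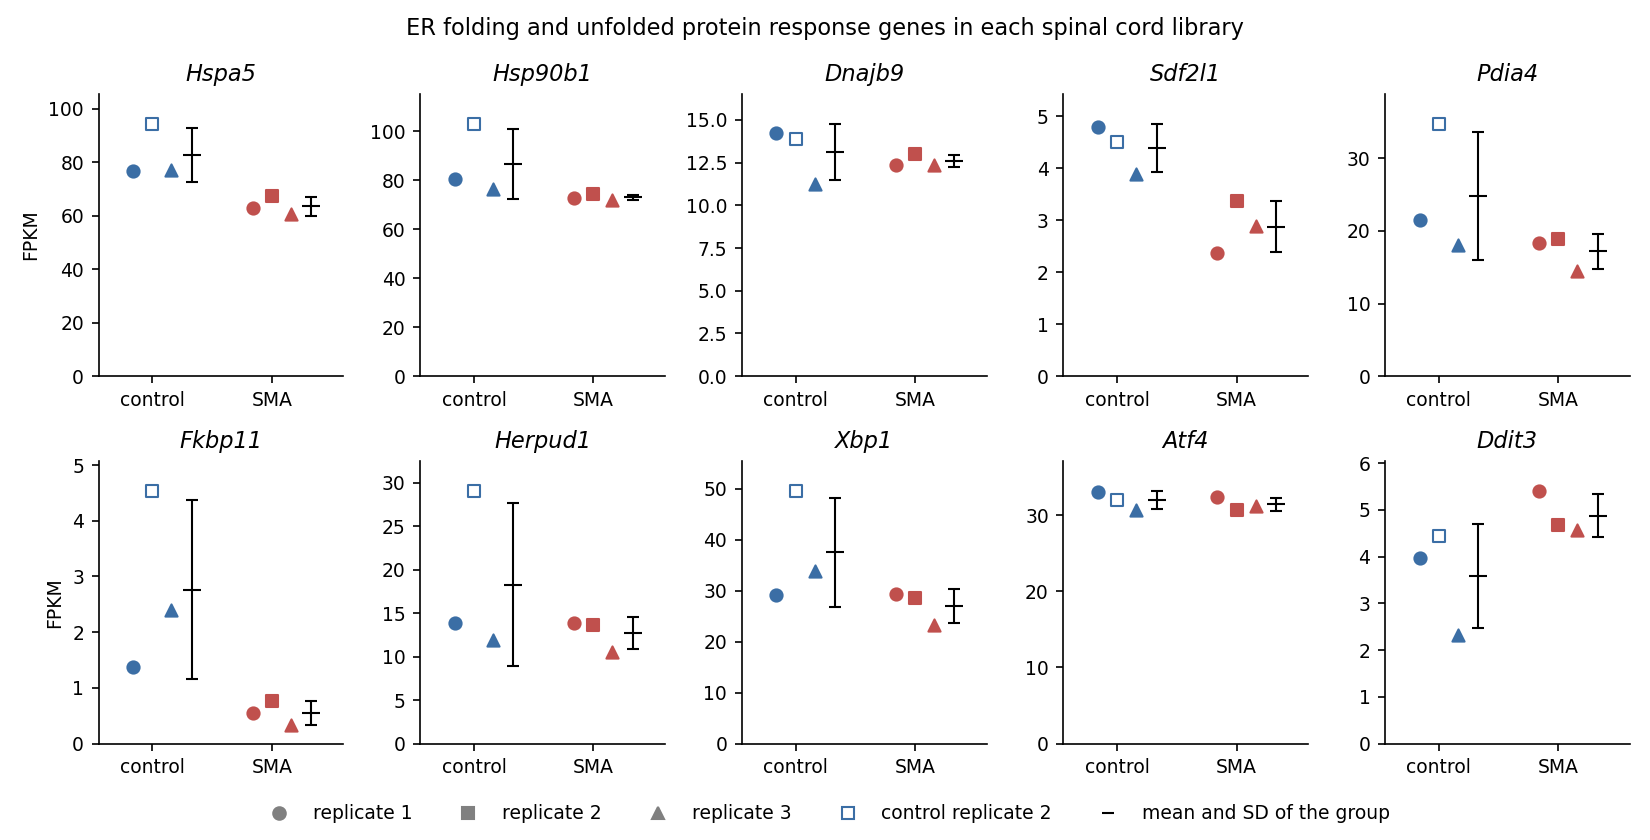
FPKM of the 10 genes, each in a panel of its own with an axis from 0, with a symbol for each library (control replicate 2 open) and, beside each group, a dash for its mean with an error bar of 1 SD (n = 3). Hspa5, Hsp90b1, Sdf2l1 and Fkbp11 separate the groups with control above, and Ddit3 with SMA above.

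Of the 4 chaperones of the ER lumen, Hspa5, Hsp90b1 and Sdf2l1 lay lower in every SMA library than in any control, by small amounts, and Dnajb9 overlapped. Controls lay above SMA in this way for 6.67% of all genes tested with 6 libraries and for 13.9% without control replicate 2, and nothing is read from the members' count. Hspa5, which encodes BiP, the most abundant ER chaperone of the Hsp70 family (chr2:34771970-34777547, plus strand), had 76.8, 94.3 and 76.9 FPKM across the control replicates, in order of number, and 62.7, 67.4 and 60.6 FPKM across those of SMA. All 3 control libraries lay above all 3 SMA libraries, and control replicate 2 was the highest. The control mean was 82.7 ± 10.1 FPKM and the SMA mean 63.5 ± 3.50 FPKM (SD, n = 3 each), a 1.30-fold ratio of mean FPKM, or 1.21-fold without control replicate 2. On log2(FPKM + 1), which understates the change of genes at a low level, the difference SMA minus control was -0.37 ± 0.12 (SE) with 6 libraries and -0.27 ± 0.063 without control replicate 2. In bulk tissue, fewer cells of a type and less RNA per cell cannot be told apart. Its upstream stretches carry ERSE and the UPRE core, as printed above.

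Hsp90b1 encodes GRP94, the Hsp90 of the ER (chr10:86690209-86705509, minus strand). It was at 80.6, 103 and 76.3 FPKM in control and at 72.7, 74.2 and 72.1 FPKM in SMA. The groups did not overlap, although control replicate 3 stood only just above SMA replicate 2. The span given for it in the deposited tables is longer, chr10:86685601-86705509, and is shared with Gm15344 on the same strand (mean of 0.973 FPKM in control and 0.291 FPKM in SMA) and 1810014B01Rik on the other (0.182 and 0.348 FPKM). The log2 fold change was -0.23 ± 0.13 with 6 libraries and -0.10 ± 0.055 without control replicate 2. Sdf2l1, part of a BiP complex that keeps unfolded clients soluble, was at 4.79, 4.51 and 3.89 FPKM in control and at 2.38, 3.38 and 2.88 FPKM in SMA. Its control libraries all exceeded its SMA libraries, and control replicate 2 lay between the other controls. Its log2 fold change was -0.48 ± 0.14 with 6 libraries and -0.47 ± 0.16 without control replicate 2. Dnajb9, which encodes the BiP co-chaperone ERdj4, was at 14.2, 13.9 and 11.2 FPKM in control and at 12.4, 13.0 and 12.4 FPKM in SMA. Here the groups overlapped, and control replicate 3 was the lowest library of all. The log2 fold change was -0.051 ± 0.11, and -0.009 ± 0.11 without control replicate 2.

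Of the 2 folding catalysts, Fkbp11 separated the groups and Pdia4 did not. Fkbp11, a membrane-anchored prolyl isomerase abundant in secretory cells (chr15:98724373-98728198), was at 1.38, 4.53 and 2.39 FPKM in control and at 0.551, 0.773 and 0.342 FPKM in SMA. All control libraries exceeded all SMA libraries, and control replicate 2 was 2.40-fold above the mean of the other controls. The control mean was 2.77 ± 1.61 FPKM against 0.556 ± 0.215 FPKM in SMA (SD, n = 3 each), a 4.98-fold ratio of mean FPKM, or 3.39-fold without control replicate 2. This gave a log2 fold change of -1.20 ± 0.32 with 6 libraries and -0.88 ± 0.21 without control replicate 2. Its SMA mean lay just above the filter, a mean of 0.5 FPKM over the libraries compared. Pdia4, a disulfide isomerase known as ERp72, was at 21.5, 34.7 and 18.1 FPKM in control and at 18.3, 18.8 and 14.5 FPKM in SMA. Control replicate 3 lay below SMA replicates 1 and 2, so the groups overlapped. The log2 fold change was -0.46 ± 0.24 with 6 libraries and -0.19 ± 0.13 without control replicate 2, which was 1.76-fold above the other controls.

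Herpud1, which holds the ubiquitin ligase complex of ER-associated degradation together, was at 13.9, 29.0 and 11.9 FPKM in control and at 13.9, 13.7 and 10.6 FPKM in SMA. Control replicate 2 was 2.25-fold above the mean of the other controls, of which replicate 3 lay within the range of SMA and replicate 1 level with its highest library. The difference, as log2 fold change, was -0.40 ± 0.32 with 6 libraries and -0.024 ± 0.13 without that library. The span given for Herpud1 reaches past its annotated exons and over the antisense gene Gm15890.

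Of the transcription factors, Xbp1, whose spliced form drives folding and degradation genes, was at 29.1, 49.5 and 33.9 FPKM in control and at 29.4, 28.5 and 23.2 FPKM in SMA. Control replicate 2 was the highest library, control replicate 1 lay below SMA replicate 1, and a gene-level FPKM does not separate the spliced form. The log2 fold change was -0.43 ± 0.21, and -0.22 ± 0.11 without control replicate 2. Atf4, the main effector of the PERK branch and controlled largely at translation, was at 33.1, 32.1 and 30.7 FPKM in control and at 32.4, 30.7 and 31.3 FPKM in SMA. The groups overlapped throughout, with log2 fold changes of -0.022 ± 0.084 and -0.019 ± 0.064.

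Ddit3, which encodes CHOP, a factor that promotes cell death under lasting ER stress, was the only member with a positive log2 fold change in both comparisons. It was at 3.98, 4.45 and 2.33 FPKM in control and at 5.40, 4.67 and 4.57 FPKM in SMA. All SMA libraries lay above all control libraries, by a narrow margin over control replicate 2. Expressed as log2 fold change, this was 0.39 ± 0.20 with 6 libraries and 0.53 ± 0.18 without control replicate 2. Control replicate 3, the lowest library, weighed on both, since they were 0.17 and 0.24 without it, and leaving out control replicates 1 and 2 together gave 0.82. Ddit3 shares its span with Mars, a tRNA synthetase gene on the opposite strand. Mars was at 16.5, 16.3 and 18.6 FPKM in control and at 18.01, 17.02 and 15.9 FPKM in SMA, so Mars, unlike Ddit3, was not higher in all SMA libraries. It is not stated whether the quantification used strand, so reads from the shared stretch could have been given to either gene.

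**Figure D2:**
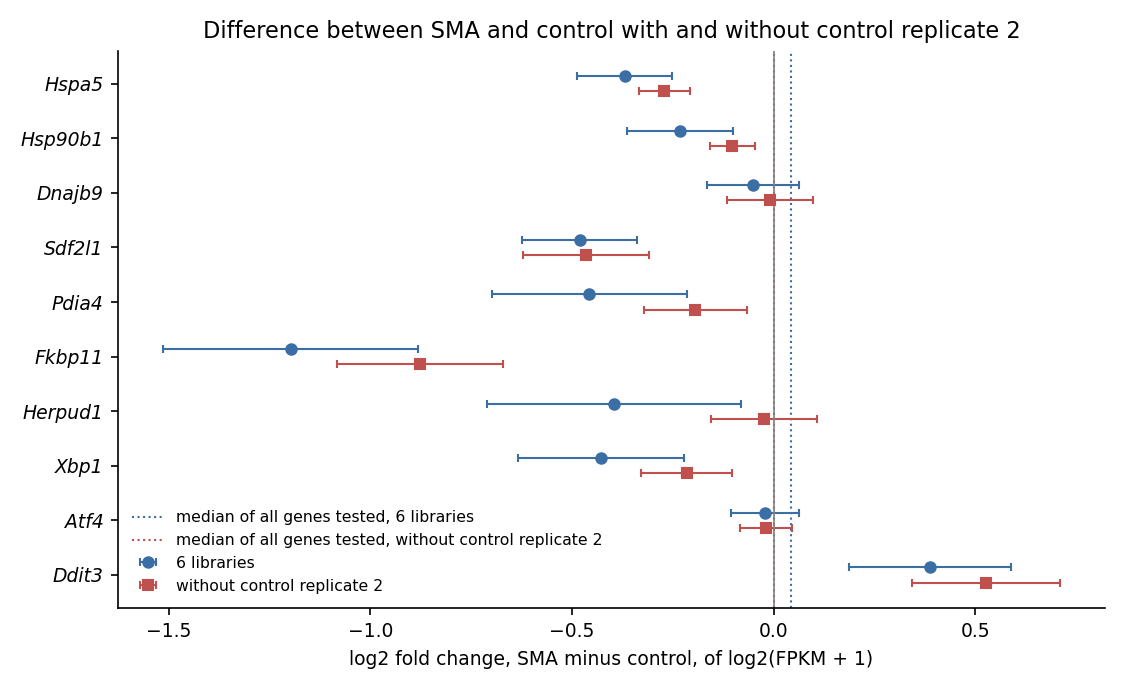
Log2 fold change, SMA minus control on log2(FPKM + 1), with its standard error for the 10 genes, with 6 libraries (blue) and without control replicate 2 (red), dotted lines marking the median of all genes in each. Fkbp11 lies lowest, at -1.20 and -0.88, Ddit3 alone lies above 0, and Atf4, whose sign turned at 0.001 under scaling to the same total FPKM, lies next to 0.

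A gene was called where limma gave an unadjusted p under 0.05 and the groups differed more than 2-fold on the log2(FPKM + 1) scale. With 6 libraries, 1 of the 10 members (Fkbp11) was called lower and 0 higher, where 0.0995% of the 17088 genes tested were called lower and 0.0702% higher. Without control replicate 2, 0 members were called in either direction by limma, where 0.0422% of 16574 genes were called lower and 0.0965% higher. An unadjusted p under 0.05 alone was reached by 3 members with a lower value and 0 with a higher value in 6 libraries (2.39% and 3.4% of all genes), and by 3 and 1 without control replicate 2 (5.2% and 5.27%). After Benjamini-Hochberg adjustment 0 members were below 0.05 in either comparison, where limma gave 0% of genes with 6 libraries and 0.0121% without control replicate 2. Those were 2 genes outside the pathway, named after their values were seen. Rpph1, the RNA of RNase P, rose with a log2 fold change of 0.63 (limma adjusted p = 0.0424), and was at 0.61 with 6 libraries (limma adjusted p = 0.683). The small nucleolar RNA Snora74a (limma adjusted p = 0.0215, and 0.683 with 6 libraries) was listed at 0 in both controls compared, at 2.99 FPKM in control replicate 2, and at 10.46, 7.86 and 5.56 FPKM in SMA, so no fold change is given. Both were higher in all 3 SMA libraries than in all controls. All controls lay above all SMA libraries for 4 of the 10 members (Hspa5, Hsp90b1, Sdf2l1 and Fkbp11) and below them for 1 (Ddit3), where 6.67% and 10.3% of all genes did so with 6 libraries and 13.9% and 14.2% without control replicate 2. Since the members were chosen with this contrast known, nothing is read from these counts.

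In both comparisons 9 of the 10 members had a negative log2 fold change, Ddit3 being the exception. The sign turned for Atf4 in 6 libraries scaled to the same total FPKM (0.001) or without control replicate 1 (0.003), and for Dnajb9 without control replicate 1 (0.007). Without control replicate 2 it turned when a further library was left out, for Atf4 (0.033), Dnajb9 (up to 0.149) and Herpud1 (up to 0.094). Over all other settings of that comparison Hsp90b1 ranged from -0.15 to -0.062, Pdia4 from -0.31 to -0.078 and Xbp1 from -0.32 to -0.11. The members' median was -0.38 with 6 libraries and -0.15 without control replicate 2. Over all genes the median was 0.044, with 42.0% negative, and 0.002, with 49.6% negative. Control replicate 2 exceeded the mean of the other controls by a median of 1.36-fold over the members, where the median over all genes was 0.889. This excess was largest for Fkbp11, Herpud1, Pdia4 and Xbp1 (2.40-, 2.25-, 1.76- and 1.57-fold), and smallest for Dnajb9, Sdf2l1 and Atf4 (1.09-, 1.04- and 1.00-fold). The part played by the hepatocyte, erythroid and neutrophil transcripts of that library in these values was not tested.

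**Figure D3:**
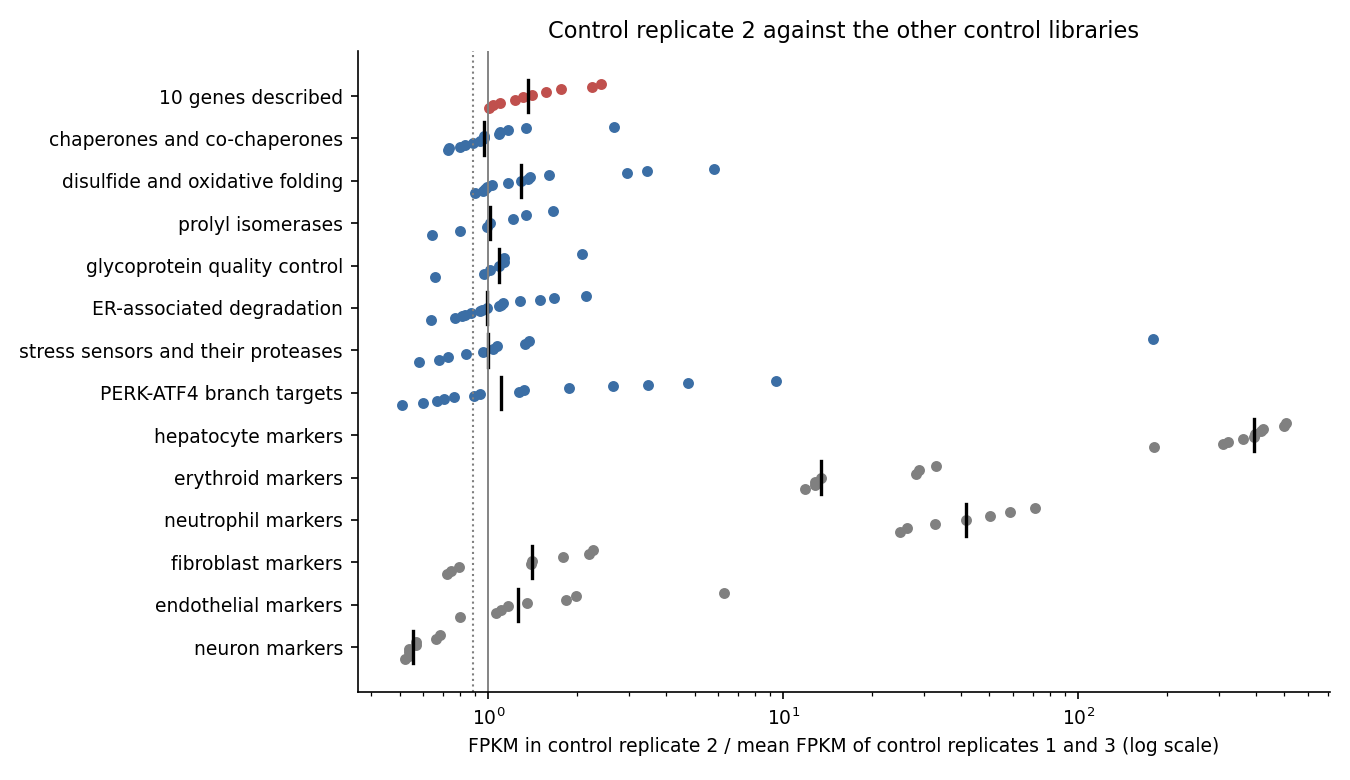
FPKM in control replicate 2 divided by the mean FPKM of control replicates 1 and 3 (log axis, no unit), with a point for each of the 10 genes (red), of the other pathway genes (blue) and of the cell type markers (grey), black bars at the median of each list and a dotted line at 0.889, the median of all genes. The 10 genes have a median of 1.36, hepatocyte, erythroid and neutrophil markers lie far to the right, neuron markers lie below 1, and the lone point at 179.1 is Creb3l3, a liver factor named here after its value was seen.

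SMA replicate 3, the lowest library for 6 of the members, also held the least connective tissue transcript. The fibroblast list (8 of 8 genes listed, Col1a2 the most abundant) summed to 210.8, 218.6 and 194.0 FPKM in control and to 225.8, 116.1 and 73.7 FPKM in SMA. For the fibroblast list the median log2 fold change was -0.77 with 6 libraries and -0.67 without control replicate 2. In each comparison limma gave 1 lower gene and 0 higher genes (unadjusted p under 0.05). Without control replicate 2 that gene was Pdgfra, which the paper uses as a marker of oligodendrocyte precursors, named here after its values were seen. Pdgfra was at 29.2, 20.9 and 28.6 FPKM in control and at 27.0, 24.9 and 24.8 FPKM in SMA, so its groups overlapped with 6 libraries. The collagen genes Col1a1, Col1a2 and Col3a1 overlapped between the groups in the comparison without control replicate 2. The endothelial list (8 of 8 genes listed) summed to 55.4, 78.7 and 65.3 FPKM in control and to 50.5, 41.4 and 45.2 FPKM in SMA, with 3 genes lower and 0 higher in 6 libraries, and 3 lower and 1 higher without control replicate 2. Its most abundant gene Cldn5, a tight junction protein of brain capillaries, was at 25.8, 20.4 and 25.0 FPKM in control and at 16.4, 15.7 and 14.4 FPKM in SMA. No gene of these 2 lists was at 0 in any library. The part of these cell types in the members' values was not tested.

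The remaining lists given here had 8 of 8 genes listed each. Astrocytes (Gfap the most abundant) summed to 646.4, 712.0 and 654.6 FPKM in control and to 631.6, 692.3 and 624.0 FPKM in SMA, and the groups overlapped. Without control replicate 2, limma gave 1 lower gene (the water channel gene Aqp4) and 1 higher (the angiotensinogen gene Agt, itself highest in control replicate 2 at 203.3 FPKM) with an unadjusted p under 0.05, both named after their values were seen. Oligodendrocytes (Mbp) summed to 897.0, 875.8 and 1341 FPKM in control and to 708.7, 887.9 and 918.2 FPKM in SMA, with 2 lower genes and 0 higher by the same rule. Spinal motor neurons (Ret) summed to 93.6, 61.8 and 134.1 FPKM in control and to 95.0, 105.1 and 102.5 FPKM in SMA, with 1 lower and 0 higher. Skeletal muscle (Acta1) was low, at 4.19, 4.87 and 2.27 FPKM in control and 5.46, 7.95 and 3.50 FPKM in SMA, and its genes Mylpf and Tnnc2 were at 0 in some libraries. By the same rule limma gave 0 lower and 2 higher genes in the neuron list, 2 lower and 0 higher in the spinal cord position list, 1 lower and 0 higher in the erythroid and in the neutrophil list, and 0 in either direction in the hepatocyte, plasma cell and skeletal muscle lists. With 6 libraries it gave 0 in either direction in every list reported apart from the fibroblast and endothelial lists.

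The other genes of ER folding and the unfolded protein response were taken from a list of 83 genes. Of these, 80 passed the filter with 6 libraries and 79 without control replicate 2. This list, too, was drawn up with earlier results of these data known. Its counts and shares, here and by role below, are therefore a description and not an independent test of the pathway. With 6 libraries, limma put 4 lower and 1 higher with an unadjusted p under 0.05 (5.0% and 1.2% of the 80, against 2.39% and 3.4% of all genes tested). Of the 80, 0 were called at more than 2-fold, and every adjusted p was 0.683 or above. Scaling each library to the same total FPKM gave 1 lower and 0 higher, and median-ratio scaling 9 and 1. Without control replicate 2, 8 were lower and 3 higher (10.1% and 3.8% of the 79, against 5.2% and 5.27% of all genes tested). Of these, 1 gene, Cebpb, was called higher. Scaling to the same total FPKM gave 17 lower and 3 higher there. The smallest adjusted p of the list was 0.176, so no gene passed the adjustment. The median log2 fold change was -0.12 with 57 of 80 negative, and -0.062 with 62 of 79 negative. Of all genes tested, 42.0% and 49.6% were negative. Controls lay above all SMA libraries for 16.2% of the list with 6 libraries and 25.3% without control replicate 2, and below them for 1.2% and 5.1%. Over all genes these shares were 6.67% and 13.9% above, and 10.3% and 14.2% below. Of the 80 genes, 33 (41.2%) had their highest value in control replicate 2, where 24.7% of all genes did.

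**Figure D4:**
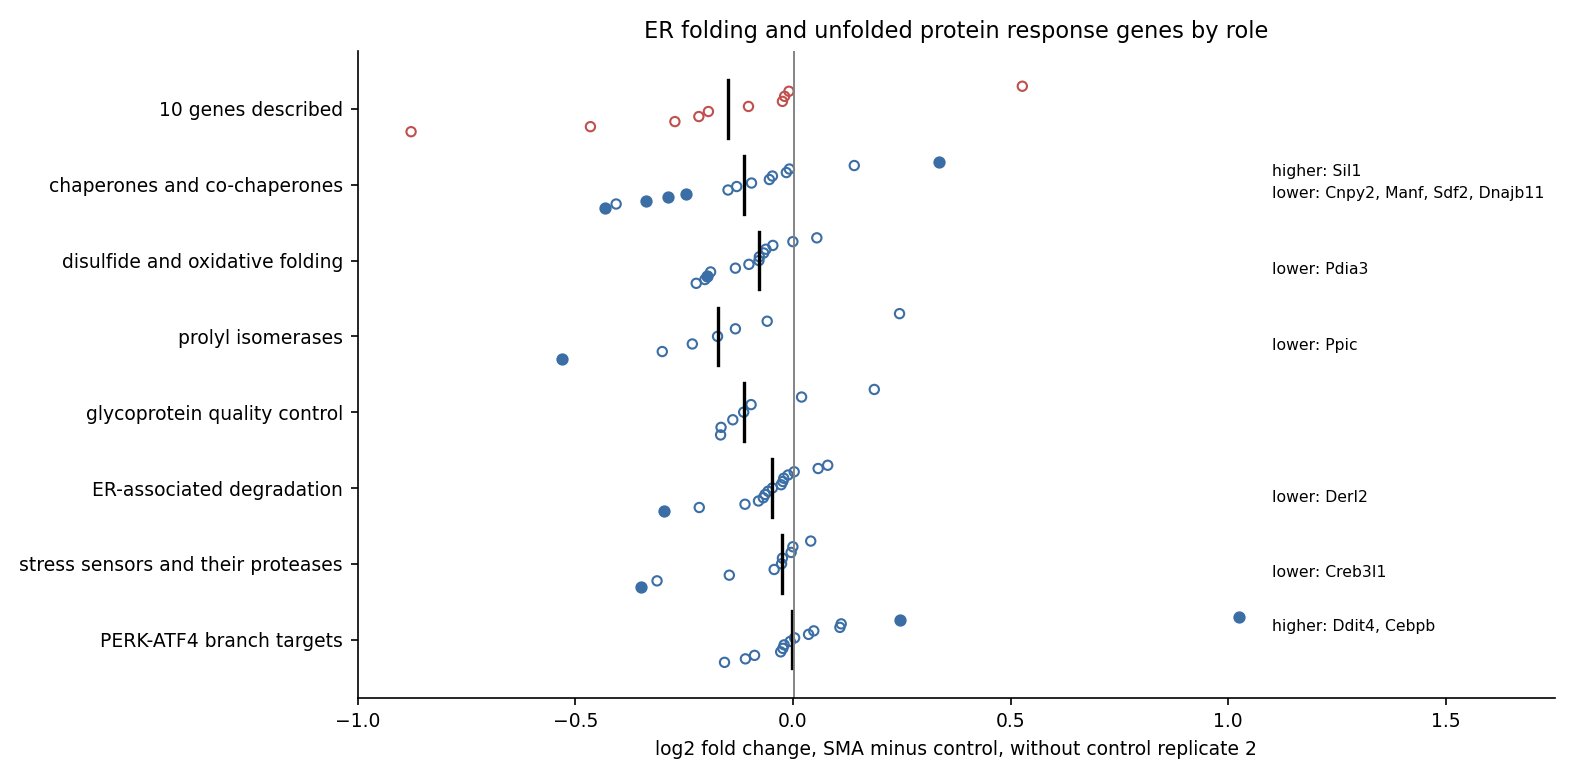
Log2 fold change, SMA minus control without control replicate 2, of each of the 10 genes (red) and of the other pathway genes (blue) by role, where vertical lines are medians, filled blue points had an unadjusted p under 0.05 in limma, and red points are all open and carry no test. Medians lie between -0.17 for prolyl isomerases and -0.001 for targets of the PERK and ATF4 branch, and -0.15 for the 10 genes.

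Among the other chaperones and co-chaperones, 2 of 14 were lower at an unadjusted p under 0.05 with 6 libraries, and 4 lower and 1 higher without control replicate 2. The 2 lower in both comparisons were Cnpy2 and Manf. Manf, a small ER stress protein that can be secreted, was at 29.1, 25.8 and 24.4 FPKM in control and at 20.3, 21.3 and 21.0 FPKM in SMA. No SMA library reached the lowest control. The log2 fold change was -0.32 ± 0.098 with 6 libraries and -0.34 ± 0.086 without control replicate 2 (limma adjusted p = 0.683 and 0.313). Cnpy2, a saposin-like ER protein, was at 16.4, 13.2 and 15.3 FPKM in control and at 12.1, 11.8 and 10.6 FPKM in SMA, again without overlap. Its log2 fold change was -0.35 ± 0.12 and -0.43 ± 0.089 (limma adjusted p = 0.683 and 0.287). The abundant lectin chaperone Calr did not separate the groups, at 109.3, 121.7 and 113.2 FPKM in control and 114.3, 110.0 and 107.6 FPKM in SMA. Canx, its membrane-bound counterpart, was at 111.0, 109.0 and 113.8 FPKM in control and at 96.6, 104.0 and 107.8 FPKM in SMA, without overlap and with log2 fold changes of -0.11 ± 0.095 and -0.13 ± 0.063.

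Of the disulfide and oxidative folding genes, 12 of 13 had a negative log2 fold change in each comparison. Over all genes 42.0% did with 6 libraries and 49.6% without control replicate 2. Of the 13, Pdia3 alone was lower at an unadjusted p under 0.05. Pdia3, an isomerase that works on glycoproteins, was at 59.5, 68.8 and 58.3 FPKM in control and at 52.8, 50.9 and 50.02 FPKM in SMA, and the groups did not overlap. Its log2 fold change was -0.27 ± 0.10 with 6 libraries and -0.20 ± 0.055 without control replicate 2 (limma adjusted p = 0.683 and 0.359). P4hb, the classical protein disulfide isomerase, was at 48.0, 144.0 and 49.7 FPKM in control and at 46.1, 47.1 and 43.2 FPKM in SMA. That library stood 2.95-fold above the other controls, and the log2 fold change went from -0.62 ± 0.41 to -0.10 ± 0.062 without it. In all, 8 of these 13 genes were highest in control replicate 2, where 24.7% of all genes were.

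Among 7 other prolyl isomerases, 1 was lower and 0 were higher with an unadjusted p under 0.05 in each comparison. It was Ppic, a cyclophilin of the secretory pathway, at 11.4, 11.3 and 7.24 FPKM in control and 7.53, 5.43 and 5.25 FPKM in SMA. Control replicate 3 lay within the range of SMA. On the log2 scale the difference was -0.63 ± 0.21 with 6 libraries and -0.53 ± 0.20 without control replicate 2 (limma adjusted p = 0.683 and 0.443). Ppib, another cyclophilin of the ER, was at 62.2, 106.4 and 66.7 FPKM in control and at 63.7, 59.8 and 53.1 FPKM in SMA, with control replicate 2 apart. Of 7 genes of glycoprotein quality control, 0 passed an unadjusted p under 0.05 in limma in either comparison. Controls lay above all SMA libraries for 4 of them in each, where 6.67% and 13.9% of all genes did so. Ganab, the catalytic subunit of glucosidase II, was one of these, at 35.2, 39.3 and 34.3 FPKM in control and 33.0, 32.03 and 32.4 FPKM in SMA. Of 15 genes of ER-associated degradation, 0 passed with 6 libraries and 1, Derl2, was lower without control replicate 2. Vcp, the ATPase that pulls proteins from the ER, was at 124.1, 95.5 and 123.9 FPKM in control and at 119.6, 124.0 and 123.0 FPKM in SMA, with control replicate 2 the lowest.

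The stress sensors and the proteases that cleave them include genes with much the same level in every library. Mbtps1, the Golgi protease that makes the first cleavage of ATF6, was at 19.4, 18.9 and 19.9 FPKM in control and at 20.1, 19.0 and 18.8 FPKM in SMA. The group had a median log2 fold change of -0.012 over 10 genes with 6 libraries and -0.026 over 9 without control replicate 2. Only Creb3l1, an ATF6-like factor, was lower at an unadjusted p under 0.05, in the comparison without control replicate 2. It was at 1.58, 0.860 and 1.38 FPKM in control and at 0.992, 1.05 and 0.804 FPKM in SMA. Over 14 targets of the PERK and ATF4 branch the medians were -0.016 and -0.001. Ddit4, an inhibitor of mTORC1 induced by several stresses, was higher at an unadjusted p under 0.05 in both comparisons, at 19.9, 13.1 and 19.2 FPKM in control and 23.5, 22.0 and 24.6 FPKM in SMA. All SMA libraries lay above all controls, with a log2 fold change of 0.43 ± 0.17 and 0.25 ± 0.072 (limma adjusted p = 0.683 and 0.366). Cebpb, a partner of ATF4 and CHOP, was at 0.454, 2.70 and 0.680 FPKM in control and at 2.20, 1.94 and 2.42 FPKM in SMA. Control replicate 2 was its highest library, so the groups overlapped, with a log2 fold change of 0.61 ± 0.35 in 6 libraries, and leaving it out gave 1.02 ± 0.15 (limma adjusted p = 0.683 and 0.176). Psat1 and Aars, ATF4 targets in serine synthesis and tRNA charging, had log2 fold changes of -0.037 and 0.096 with 6 libraries, and of -0.088 and -0.028 without control replicate 2, where the sign of Aars turned and Psat1 no longer overlapped between the groups.

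The genes most like 2 of the members across the 6 libraries were found among 10142 genes by the root mean square difference of their centred log2(FPKM + 1) values. For Hspa5 they were Dram2 (0.037), Il6st (0.040) and Clic4 (0.042). Clic4, a chloride channel-like protein, was at 29.9, 37.9 and 29.1 FPKM in control and at 24.1, 24.6 and 23.7 FPKM in SMA, with control replicate 2 the highest and no overlap, as for Hspa5. For Fkbp11 they were Bphl (0.233), Egfr (0.257) and Hist2h4 (0.268), none of them as close. Egfr, the growth factor receptor, was at 7.14, 18.6 and 7.48 FPKM in control and at 5.88, 5.86 and 4.24 FPKM in SMA, with control replicate 2 far above the rest.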

How the data were processed

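Total RNA of spinal cord had been depleted of ribosomal RNA and sequenced from strand-specific libraries. The authors deposited 1 gene table of FPKM per library, which lists only genes above 0 FPKM, so an unlisted gene was set to 0. The submitters' processing notes name mm10, HISAT2 and Cufflinks, and versions are not given in the sources used here. Genes whose mean reached 0.5 FPKM were compared on log2(FPKM + 1) between SMA and control with limma 3.58.1 (lmFit, eBayes with trend) in R 4.3.3, with Benjamini-Hochberg adjustment over all genes tested. The same was done without control replicate 2. The members, the pathway list and the 14 cell type lists were chosen with earlier results of these data known. Of the 14 lists, 2 are not reported here. Besides the members and Smn1, the genes named were, for each role, the 2 with the highest mean, pathway genes called in either comparison, the 4 largest differences at an unadjusted p under 0.05 in each comparison, the most abundant gene of each cell type list reported, and the 3 genes nearest to Hspa5 and to Fkbp11 with a mean of at least 5 FPKM. Exons were taken from GENCODE M21 and promoter windows from RefSeq GRCm38.p6. Scripts were tested on simulated data. Alternatives were a pseudocount of 0.1, no filter, median-ratio scaling, scaling to the same total FPKM, a replicate block, and leaving out each library. The study's single-cell data were not analysed here.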

Additional observations from a re-analysis of the deposited data

How the results depend on the processing

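Of the members' log2 fold changes, 200 values under other settings lay within 1 SD of those reported and 10 moved further. Fkbp11, the member called lower with 6 libraries, was not called without control replicate 2. Of all genes tested, 0.0995% and 0.0422% were called lower, and nothing is read from the call of a member chosen with this contrast known. Its log2 fold change there, -0.88, fell short of 2-fold, while a pseudocount of 0.1 gave -1.60. Leaving out a further control gave -1.13 (control replicate 1) or -0.62 (control replicate 3). Fkbp11, Hspa5, Hsp90b1, Pdia4, Sdf2l1 and Xbp1 were negative and Ddit3 positive in every setting tried, and Fkbp11 ranged from -2.03 (pseudocount 0.1) to -0.88 with 6 libraries. The members' median moved from -0.38 to -0.15 without control replicate 2 (range -0.45 to -0.15 over libraries left out), and ranged from -0.19 to -0.070 when a further library was left out. Counts over all genes depended on the settings. With 6 libraries, genes called lower (17) became 125 with a pseudocount of 0.1 and 35 with the replicate block, and ranged from 4 to 131 with a library left out (78, 7 and 131 without control replicates 1 to 3, and 34, 4 and 6 without SMA replicates 1 to 3). Genes called higher (12) became 64 with a pseudocount of 0.1, 13 with the replicate block, and 12 to 28 with a library left out (28 without control replicate 1). Without control replicate 2, the 7 lower became 59 and, with the block, 19, with a range of 7 to 35, and the 16 higher became 115 and 26, with a range of 22 to 56 (lower and higher, 24 and 56 without control replicate 1, 35 and 33 without control replicate 3, 29 and 27 without SMA replicate 1, and 11 and 25 without SMA replicate 2). Of the other pathway genes, 4 lower and 1 higher with 6 libraries became 9 and 1 with median-ratio scaling, 1 and 0 with the same total FPKM, and 5 and 1 with the replicate block, and ranged from 1 to 8 (8 without control replicate 2, 1 without SMA replicate 2 or 3) and from 0 to 3 (3 without control replicate 2 or 3, 0 without any SMA replicate). Without control replicate 2, 8 lower became 17 with the same total FPKM and 8 with the block (5 to 10 with a library left out, 5 without SMA replicate 2 or 3), and 3 higher became 2 with the block (3 to 5, 5 without control replicate 3). The members' median with the replicate block was -0.38 and, without control replicate 2, -0.19. Deviations from the group mean correlated at -0.037, 0.016 and 0.077 between samples of the same number. Between samples of different number they ranged from -0.055 to 0.043. Control replicate 2 entered the mean from which every control deviates, so these values cannot decide whether the numbers pair the samples. The cause was not tested for any of these. In the 5-library comparison, leaving out a control leaves a lone control that is assumed to vary like the other group. Read depth, unknown here, limits genes such as Fkbp11 that lie near 1 FPKM.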
